A study of Homo sapiens with 6 samples.

Results

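Keratins were taken as every row of the deposited gene table whose symbol is KRT followed by digits and at most 1 letter from A to C. The rule found 46 of 17862 genes, 23 of type I and 23 of type II, and used no measured value. RNA came from SCC-9, a standard human cell line from a squamous cell carcinoma of the tongue, in which MTHFD2, a mitochondrial enzyme of folate metabolism, had been targeted. Of the 6 libraries, 3 came from cells with short hairpin plasmids against MTHFD2 (shMTHFD2) and 3 came from cells with a control hairpin (shNC). All cells grew in DMEM/F12 that held hydrocortisone at 400 ng/mL and serum at 10%. By its title, the study asked how MTHFD2 bears on FOXO1 degradation in this carcinoma. The number of clones, the hairpin sequences and the time after plasmid transfer are not stated in these sources, and the design text calls the cells knock-out although the treatment label says knockdown. The labels call the libraries biological replicates without further detail, so the spread behind each p-value is that between libraries and may be technical.

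Keratins are the intermediate filament proteins of epithelia. Each filament is built from an acidic type I chain bound to a basic type II chain, and the chains expressed mark the kind of epithelium. KRT5 and KRT14 are made by basal cells of stratified epithelium, KRT8 and KRT18 by simple epithelium, KRT6 isoforms with KRT16 and KRT17 by wounded or hyperproliferative epithelium, and a further set by the hair shaft. KRT4 and KRT13 are the pair of the upper layers of non-keratinized mucosa such as that lining much of the mouth, and KRT1 and KRT10 the pair of upper epidermis. Human type I genes lie together on chromosome 17 and type II genes on chromosome 12, with KRT18 the type I gene that lies beside KRT8. In the table, 22 of 23 type I rows were on chromosome 17 and all 23 type II rows on chromosome 12, by a RefSeq gene table.

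Neighbouring keratin genes are often recent copies of each other, which bears on the counts of such copies below. KRT81 and KRT86 were aligned over 1454 coding bases and differed at 85 of them, an identity of 94.2%, and the KRT6A and KRT6B coding sequences differed at 42 of 1692 bases, an identity of 97.5%. The sequences shown are the 60-base coding stretches where each pair differs most, since reads from there can tell the copies apart. They come from the GENCODE 29 coding sequences on chromosome 12, written 5′ to 3′ on the coding strand, with capitals at the bases that differ within the pair. The first stretch covers coding bases 1249 to 1308 and holds 14 differences:
KRT81: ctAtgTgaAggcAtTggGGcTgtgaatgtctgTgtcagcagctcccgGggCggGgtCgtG
KRT86: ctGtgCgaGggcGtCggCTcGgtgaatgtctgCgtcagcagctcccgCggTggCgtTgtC
The second covers coding bases 663 to 722 and holds 9 differences:
KRT6A: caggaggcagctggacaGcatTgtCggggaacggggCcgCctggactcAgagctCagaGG
KRT6B: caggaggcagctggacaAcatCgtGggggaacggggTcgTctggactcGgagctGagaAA

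Part of each coding sequence, however, was shared letter for letter with a copy. Of all 75-base windows of the KRT81 coding sequence, 42.5% occurred unaltered in KRT86, and 44.2% of the KRT86 windows occurred in KRT81. For KRT6A, 35.1% of windows occurred in another gene, and for KRT6B 46.2%. KRT14 and KRT16 shared less, with 10.8% and 11.3% of windows found elsewhere, and KRT15, KRT19, KRT80, KRT10 and KRT9 shared none. KRT18 had 31.2%, with 24.1% in annotated KRT8 transcripts, and KRT8 had 22.1%, mostly in pseudogenes. The read length and the counting of shared reads are not stated, so counts of KRT81, KRT86 and the KRT6 genes are uncertain one by one. Annotated KRT81 lies inside the span of KRT86 on the opposite strand with 0 exon bases in common.

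MTHFD2 itself was at 38.5, 29.1 and 58.5 TPM (the authors' level, scaled to transcript length and depth) in shMTHFD2 libraries, against 160.4, 168 and 149.6 TPM in shNC libraries. It fell, by 1.95 on the log2 scale (SE 0.21, edgeR adjusted p = 0.00924), and the groups did not overlap. With any 1 shNC library or shMTHFD2 replicate 1 left out, its log2 fold change was -1.99 to -1.90 and its adjusted p 0.0668 to 0.0918, over the threshold. Fold changes here are shMTHFD2 over shNC from edgeR's quasi-likelihood test on the estimated counts, and "rose" or "fell" means a Benjamini-Hochberg adjusted p under 0.05 over the 13710 genes tested. The libraries held 18676999 to 19838989 estimated counts each. Their log2 levels correlated across genes, which are not independent replicates, at r = 0.992 to 0.994 within shNC and 0.958 to 0.984 within shMTHFD2. Replicate 2 of shMTHFD2 had the lowest values of r with the others, 0.946 to 0.977. Of the 20 keratins tested, 19 had a larger coefficient of variation of TPM in shMTHFD2 than in shNC.

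SCC-9 cells expressed a mixture of keratins of basal, wound, hair and simple epithelial kinds. In total 20 of 46 keratins passed the filter on low counts, 11 of type I and 9 of type II. The mean reached 10 TPM in either group for 15, and 9 keratins exceeded 100 TPM in every library. In order of mean level over all libraries these 9 were KRT14, KRT6A, KRT81, KRT5, KRT17, KRT18, KRT8, KRT86 and KRT19. In that order only KRT14 and KRT6A, and KRT5 and KRT17, had ranges over the 6 libraries that lay apart, while each other neighbouring pair overlapped.

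The 26 keratins that did not pass were all at or below 0.55 TPM in every library, and none had more than 11.54 estimated counts. They were KRT1 and KRT2 of the epidermis, KRT3, KRT4, KRT12, KRT13 and KRT78 of mucosa and cornea, and KRT6C. KRT25, KRT26, KRT27, KRT71, KRT73, KRT74, KRT75 and KRT79 of the inner root sheath and hair follicle were also among them. The remainder were the hair shaft keratins KRT31, KRT32, KRT33A, KRT33B, KRT37, KRT39, KRT40, KRT82, KRT83 and KRT84. Where a library had 0 counts, counting error alone would allow as many as 3, which is 0.151 to 0.161 CPM (counts scaled to library size). The mucosal pair was therefore close to the detection limit in this tongue line: KRT13 was at 0.26, 0.42 and 0 TPM in shMTHFD2 and 0.07, 0.19 and 0.13 TPM in shNC, and KRT4 was above 0 in only 1 library, shMTHFD2 replicate 2.

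**Figure D1:**
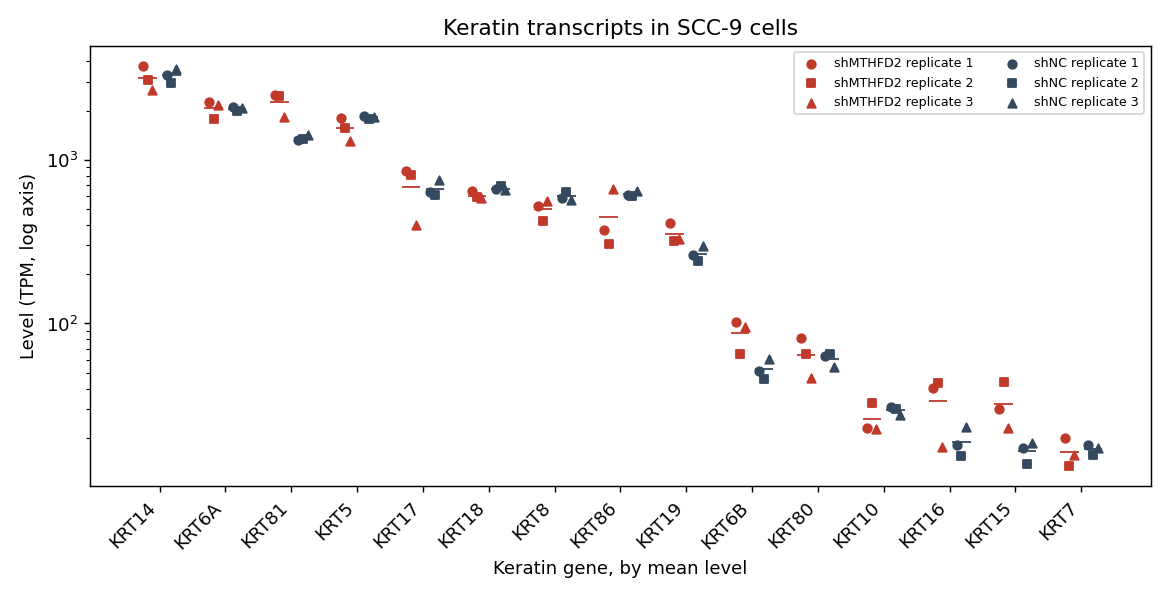
Level of the 15 keratins with a mean of at least 10 TPM in either group, in TPM on a log axis, by library; shMTHFD2 libraries are red and to the left of shNC libraries, markers are replicates and lines are group means. KRT81 is above every shNC library in all 3 shMTHFD2 libraries, KRT86 is lower in 2 of 3, and KRT17 in shMTHFD2 replicate 3 is at 400.1 TPM, the lowest of the 6.

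One keratin passed the test. KRT81 rose, and 0 keratins fell by edgeR. The counts of 1 higher and 0 lower among 20 keratins stand beside 2.97% of all 13710 genes called higher and 2.47% called lower, 5.43% together, so the keratin count was near the background. At an unadjusted p under 0.05 there were 5 keratins, 4 higher and 1 lower, beside 28.7% of all genes. DESeq2 called 3 keratins higher and 0 lower, beside 8.07% of all genes higher and 6.69% lower. For limma-voom the counts were 1 higher and 0 lower, beside 2.57% and 2.49% of all genes. With shMTHFD2 replicate 2 left out, edgeR called 3 keratins higher and 1 lower, beside 7.14% and 7.09% of all genes, 14.2% together. With replicate 3 left out it called 4 higher and 1 lower, beside 13.6% and 12.6%, 26.3% together. The median log2 fold change of the tested keratins was -0.08, against 0.01 for all genes tested, with a range of -0.83 to 1.59. In counts scaled to library size the groups did not overlap for 8 keratins, beside 37.8% of all genes. KRT81, KRT6B, KRT15 and KRT19 lay above the shNC range, beside 18.1% of all genes, and KRT8, KRT18, KRT5 and KRT9 lay below it, beside 19.7%. For KRT9 the margin was small, with 1.22 CPM at most in shMTHFD2 and 1.24 CPM at least in shNC. In TPM these KRT9 extremes tied at 1.11.

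Among the keratins the largest difference in mean TPM was that of a hair shaft keratin. KRT81 (Entrez Gene 3887), a type II keratin of the hair cortex, was at 2491, 2468 and 1835 TPM in shMTHFD2 libraries, against 1321, 1333 and 1415 TPM in shNC libraries. Every shMTHFD2 library was above every shNC library, at 1.84, 1.82 and 1.35 times the shNC mean. KRT81 averaged 2265 ± 372 TPM in shMTHFD2 and 1356 ± 51.0 TPM in shNC (SD, n = 3 each), and rose by 0.69 on the log2 scale (SE 0.15, edgeR adjusted p = 0.0444). Its estimated counts were 23402.6 to 45026 per library, so counting error was small beside the spread between libraries. The adjusted p was close to the threshold and passed it without shMTHFD2 replicate 2 (0.0272) or replicate 3 (0.00336). It was 0.213, 0.226 and 0.137 in edgeR without shNC replicates 1, 2 and 3, and 0.143 without shMTHFD2 replicate 1.

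KRT86 (Entrez Gene 3892), the neighbouring type II hair keratin, was at 371, 304 and 659 TPM in shMTHFD2, against 610.2, 599.9 and 644 TPM in shNC. In TPM, replicates 1 and 2 of shMTHFD2 were below all shNC libraries and replicate 3 was above them all, so the groups overlapped. In counts scaled to library size, replicate 3 was at 677 CPM, within the shNC range of 661 to 720 CPM. Its means were 445 ± 189 TPM in shMTHFD2 and 618 ± 23.0 TPM in shNC (SD, n = 3 each), and the log2 fold change of -0.54 (SE 0.25, edgeR adjusted p = 0.195) did not pass. Without shMTHFD2 replicate 3 it was -0.88 with an adjusted p of 0.00743, so 1 library decided the call, and without replicate 2 it was -0.33 (adjusted p = 0.287).

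The split of reads between the pair followed the same libraries. KRT81 took 85.2%, 87.4% and 70.4% of the pair's estimated counts in shMTHFD2, against 64.9%, 65.5% and 65.3% in shNC. Replicate 3 of shMTHFD2, with the smallest KRT81 share of its group, was also the shMTHFD2 library with the most MTHFD2. A link between the KRT81 share and the MTHFD2 level was not tested. Summed, the pair was at 2863, 2772 and 2494 TPM in shMTHFD2 and 1932, 1932 and 2059 TPM in shNC, again with no overlap. A fit with the pair as 1 row, chosen after seeing the data, gave a log2 fold change of 0.37 (SE 0.10). Its edgeR adjusted p of 0.0743 missed the threshold. That value was 0.0137 without shMTHFD2 replicate 3, but 0.188 without replicate 1 and 0.0548 without replicate 2. With shNC replicate 1, 2 or 3 left out, the pair's adjusted p was 0.290, 0.301 and 0.176 in that order. Whether the assignment of shared reads moved with the groups was not tested. KRT83, 93.4% identical to KRT81 over their aligned coding bases, was at 0.07 to 0.22 TPM in the 6 libraries.

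**Figure D2:**
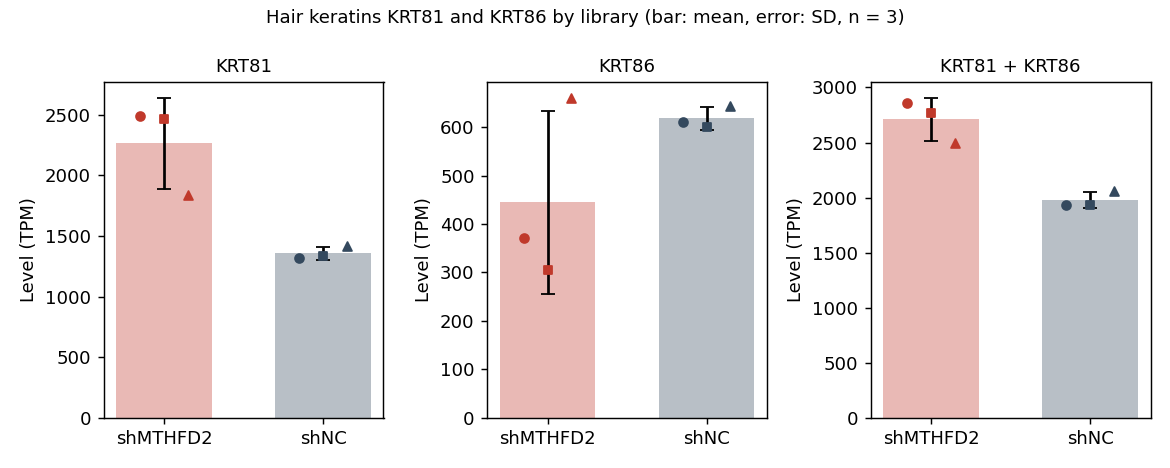
Level of KRT81, of KRT86 and of their sum, in TPM on linear axes from 0; bars are means, error bars SD (n = 3 libraries a group) and points the libraries, with circles, squares and triangles for replicates 1, 2 and 3. KRT81 and the sum do not overlap between shMTHFD2 and shNC, while KRT86 in shMTHFD2 replicate 3, at 659 TPM, is above all shNC libraries.

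The other hair shaft keratins were scarce. KRT34, a type I hair keratin, averaged 1.71 TPM in shMTHFD2 and 1.79 TPM in shNC and had a log2 fold change of -0.11 (SE 0.79, edgeR adjusted p = 0.937). KRT85, a type II keratin of the early hair shaft, was listed at 0 in shMTHFD2 replicate 2, and its log2 fold change was -0.83 (SE 0.76, adjusted p = 0.488). Of the 17 hair shaft keratins on the list, 14 were in the table and 4 were tested.

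No wound keratin passed the test. KRT6A (Entrez Gene 3853), the main type II keratin of activated oral and epidermal cells, was at 2252, 1772 and 2163 TPM in shMTHFD2, against 2092, 1997 and 2069 TPM in shNC. Its log2 fold change was -0.05 (SE 0.11, edgeR adjusted p = 0.790), and shNC values lay within the shMTHFD2 range. KRT6B (Entrez Gene 3854), its near-identical copy, was at 103, 65.2 and 95.3 TPM in shMTHFD2, against 51.3, 45.6 and 60.9 TPM in shNC. The groups did not overlap for KRT6B, but its log2 fold change of 0.68 (SE 0.18) missed the threshold in edgeR (adjusted p = 0.0708) and passed in DESeq2 (0.0101). Without shMTHFD2 replicate 2 the edgeR value was 0.86 with an adjusted p of 0.00612. The other leave-outs did not pass, with 0.54 (adjusted p = 0.188) without shMTHFD2 replicate 1, 0.66 (0.0567) without replicate 3, and adjusted p of 0.134 to 0.285 without an shNC library. KRT6B made up 4.35%, 3.54% and 4.21% of the counts of KRT6A, KRT6B and KRT6C in shMTHFD2, against 2.39%, 2.22% and 2.85% in shNC. As 1 row, the 3 KRT6 genes had a log2 fold change of -0.02 (edgeR adjusted p = 0.902).

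KRT16 (Entrez Gene 3868), a type I partner of KRT6 chains, was at 40.3, 43.2 and 17.7 TPM in shMTHFD2, against 17.97, 15.4 and 23.5 TPM in shNC. Replicates 1 and 2 of shMTHFD2 were high and replicate 3 lay within the shNC range. The log2 fold change was 0.79 (SE 0.35, edgeR adjusted p = 0.181), and 1.13 with an adjusted p of 0.0126 without shMTHFD2 replicate 3, against 0.58 (adjusted p = 0.353) without replicate 2. KRT17 (Entrez Gene 3872), another type I keratin of wounds and of skin appendages, was at 851, 806 and 400.1 TPM in shMTHFD2, against 636, 607 and 748 TPM in shNC. Its shMTHFD2 libraries lay on both sides of the shNC range, and the log2 fold change was 0.00 (SE 0.28, adjusted p = 0.995). Its coefficient of variation was 36.2% in shMTHFD2 and 11.2% in shNC.

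The basal pair showed no change that passed. KRT14 (Entrez Gene 3861), the most abundant keratin of these cells, was at 3744, 3062 and 2666 TPM in shMTHFD2, against 3288, 2957 and 3606 TPM in shNC, with overlapping groups and a log2 fold change of -0.11 (SE 0.16, edgeR adjusted p = 0.671). KRT5 (Entrez Gene 3852), its type II partner, was at 1808, 1574 and 1303 TPM in shMTHFD2, against 1865, 1765 and 1834 TPM in shNC, and its log2 fold change was -0.27 (SE 0.14, adjusted p = 0.244). In TPM the highest KRT5 library of shMTHFD2 lay within the shNC range, while in counts scaled to library size the groups were apart by a small margin.

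KRT15 (Entrez Gene 3866), a type I keratin of basal cells that has no steady type II partner of its own, was at 29.9, 43.9 and 23.0 TPM in shMTHFD2, against 17.2, 13.8 and 18.6 TPM in shNC. All 3 shMTHFD2 libraries were higher, with shMTHFD2 replicate 2 the highest. The log2 fold change of 0.95 (SE 0.26) missed the threshold in edgeR (adjusted p = 0.0718) and passed in DESeq2 (0.00605). Without shMTHFD2 replicate 2 it was 0.67 (adjusted p = 0.0373), and without replicate 3 it was 1.16 (adjusted p = 0.0158), while the other 4 leave-outs gave 0.83 to 1.07 with adjusted p of 0.155 to 0.277. No 75-base window of KRT15 occurs in another gene of GENCODE 29.

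Among simple epithelial keratins, none passed. KRT8 (Entrez Gene 3856), the type II chain of simple epithelium, was at 522, 420.2 and 563 TPM in shMTHFD2, against 588, 636 and 566 TPM in shNC. Every shMTHFD2 library was lower, replicate 3 by a margin smaller than the spread within either group, and the log2 fold change was -0.30 (SE 0.12, edgeR adjusted p = 0.139). KRT18 (Entrez Gene 3875), its type I partner, was at 642, 589 and 582 TPM in shMTHFD2, against 663, 689 and 650.1 TPM in shNC. It too was lower in all 3 libraries, by a log2 difference of -0.19 (SE 0.09, edgeR adjusted p = 0.209).

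KRT19 (Entrez Gene 3880), a type I keratin with almost no tail domain, was at 412, 319.6 and 330.4 TPM in shMTHFD2, against 263, 242 and 297 TPM in shNC. The groups did not overlap, and the log2 fold change was 0.35 (SE 0.14, edgeR adjusted p = 0.146). KRT7 (Entrez Gene 3855), a type II keratin of ducts and glands, was at 19.99, 13.4 and 15.6 TPM in shMTHFD2, against 18.1, 15.7 and 17.4 TPM in shNC, for a log2 fold change of -0.13 (SE 0.18, edgeR adjusted p = 0.654).

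KRT10 (Entrez Gene 3858), the type I keratin of differentiating epidermis, was at 22.9, 32.8 and 22.5 TPM in shMTHFD2, against 31.1, 29.8 and 27.6 TPM in shNC. Replicates 1 and 3 of shMTHFD2 were below the shNC range and replicate 2 was above it. Its log2 fold change was -0.22 (SE 0.17, edgeR adjusted p = 0.415), while it was -0.42 (adjusted p = 0.0230) without shMTHFD2 replicate 2 and -0.09 (adjusted p = 0.676) without replicate 3. KRT9, the keratin of palms and soles, had a log2 value of -0.50 (SE 0.31, edgeR adjusted p = 0.318) at means of 0.93 TPM in shMTHFD2 and 1.27 TPM in shNC.

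KRT80 (Entrez Gene 144501), a type II keratin of many epithelia, was at 82.0, 64.7 and 46.2 TPM in shMTHFD2, against 63.1, 64.8 and 54.2 TPM in shNC, so that shMTHFD2 spanned the shNC range (log2 fold change 0.04, SE 0.21, edgeR adjusted p = 0.915). KRT23, a type I keratin, had the largest coefficient of variation in shMTHFD2 among the tested keratins, 98.8%, with 4.72, 13.8 and 1.20 TPM in shMTHFD2 against 1.77, 1.98 and 2.51 TPM in shNC. Its log2 fold change of 1.59 (SE 0.69, adjusted p = 0.178) rested most on shMTHFD2 replicate 2, without which it was 0.66 (adjusted p = 0.420). Replicate 3 was the lowest of the 6 libraries, and without it the value was 2.08 (adjusted p = 0.0162). The log2 fold change of KRT222 was 0.05 (SE 0.45, edgeR adjusted p = 0.948), and all of its 75-base windows occur in an overlapping read-through annotation.

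**Figure D3:**
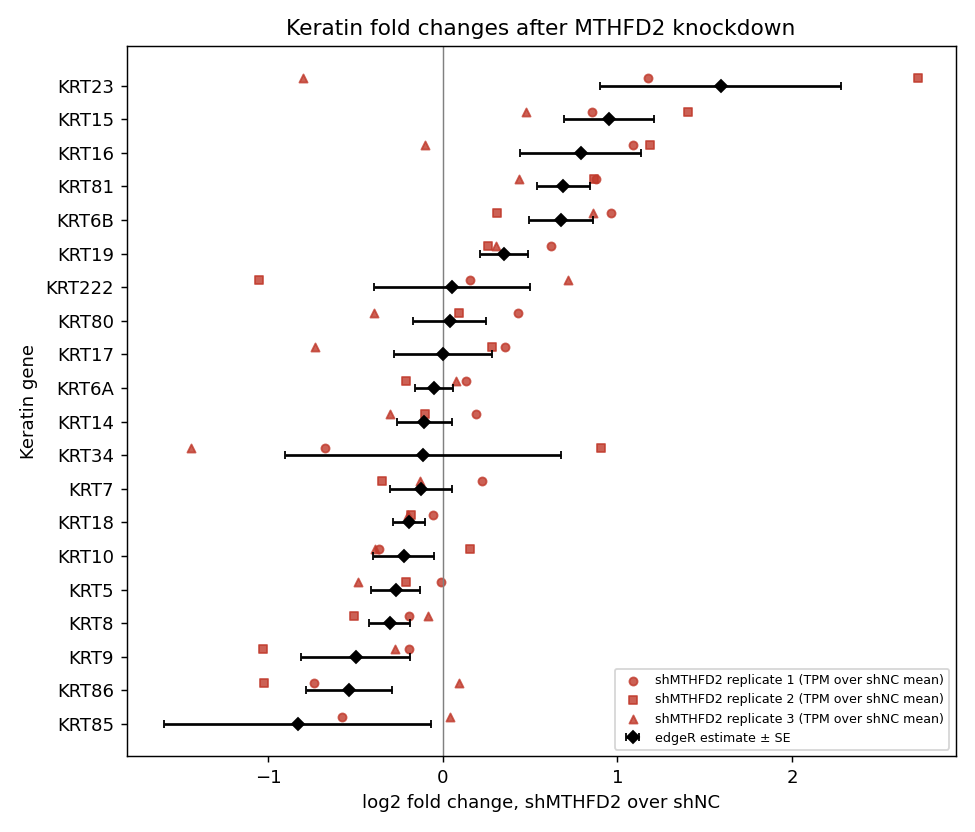
Log2 fold change of the 20 tested keratins, shMTHFD2 over shNC; black diamonds are edgeR estimates with SE, and red circles, squares and triangles are shMTHFD2 replicates 1, 2 and 3, each as TPM over the shNC mean. KRT85 in shMTHFD2 replicate 2 is listed at 0 and is not drawn. Replicate 3 lies apart from the other 2 for KRT16, KRT17, KRT81 and KRT86, and all 3 lie apart for KRT23.

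Keratin partners were compared within each library as the TPM ratio of the type II to the type I chain, over 5 textbook pairs with both chains expressed. KRT5 over KRT14 was 0.483, 0.514 and 0.489 in shMTHFD2, against 0.567, 0.597 and 0.508 in shNC, a log2 difference of -0.17 (exact two-sided permutation p = 0.2, adjusted over 5 pairs 0.5). KRT8 over KRT18 was 0.814, 0.713 and 0.968 in shMTHFD2, against 0.888, 0.924 and 0.871 in shNC, with overlapping groups (exact permutation p = 0.5, adjusted 0.625). With 3 libraries against 3, the smallest p such a test allows is 0.1, so no pair could pass 0.05. KRT7 over KRT19 reached that value: it was 0.0486, 0.0420 and 0.0473 in shMTHFD2, below all of 0.0688, 0.0649 and 0.0586 in shNC, a log2 difference of -0.48 (exact permutation p = 0.1, adjusted 0.5).

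The ratios of wound keratins were scattered in shMTHFD2. KRT6A over KRT16 was 55.8, 41.0 and 122 in shMTHFD2, against 116, 129.5 and 88.2 in shNC (exact permutation p = 0.3, adjusted 0.5). KRT6A over KRT17 was 2.65, 2.20 and 5.41 in shMTHFD2, against 3.29, 3.29 and 2.77 in shNC (exact permutation p = 1, adjusted 1). In both, shMTHFD2 replicate 2 was the lowest of the 6 libraries and replicate 3 the highest of its group. The pairs KRT4 with KRT13 and KRT1 with KRT10 gave no ratio, since KRT4, KRT13 and KRT1 were under 1 TPM.

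The summed keratin level overlapped between the groups. All keratins together were at 13401, 11598.5 and 10729.9 TPM in shMTHFD2, against 11532, 11017 and 12042 TPM in shNC, with shMTHFD2 spanning the shNC range. That was 1.34%, 1.16% and 1.07% of all TPM in shMTHFD2 and 1.15%, 1.10% and 1.20% in shNC. The log2 ratio of the means, 11909.7 ± 1362 over 11530.4 ± 513 TPM (SD, n = 3 each), was 0.05. Without KRT81 and KRT86 the sums averaged 9199.97 ± 1196 TPM in shMTHFD2 and 9556 ± 451 TPM in shNC. Type I summed to 0.752, 0.736 and 0.605 of type II in shMTHFD2, against 0.744, 0.706 and 0.808 in shNC, with overlap.

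The shares of 2 role groups in that total did not overlap between shMTHFD2 and shNC. Hair shaft keratins took 21.4%, 23.9% and 23.3% of keratin TPM in shMTHFD2, against 16.8%, 17.6% and 17.1% in shNC, with no overlap, and KRT81 alone took 18.6%, 21.3% and 17.1% against 11.5%, 12.1% and 11.7%. Basal keratins took 41.7%, 40.4% and 37.2% in shMTHFD2, below 44.8%, 43.0% and 45.3% in shNC. Wound keratins took 24.2%, 23.2% and 24.9% in shMTHFD2 and 24.3%, 24.2% and 24.1% in shNC, and simple epithelial keratins 11.9%, 11.6% and 13.9% against 13.3%, 14.4% and 12.7%, both with overlap. These shares are descriptions without a test, and a higher share of one group lowers those of the others.

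**Figure D4:**
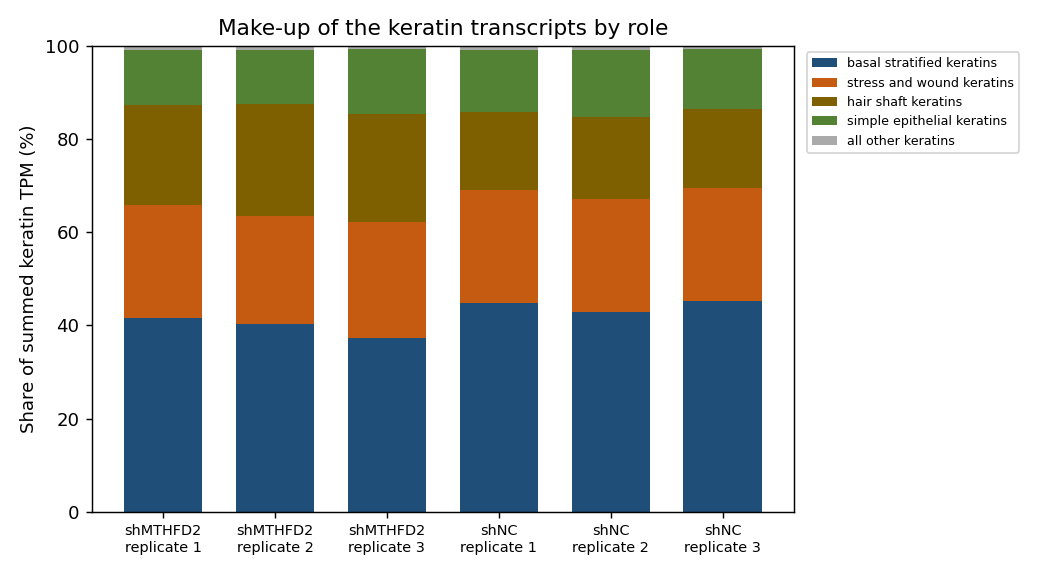
Share of the summed keratin TPM, in percent, taken by each role group in each library, with the 3 shMTHFD2 libraries on the left and the 3 shNC libraries on the right. Hair shaft keratins take 21.4 to 23.9% in shMTHFD2 and 16.8 to 17.6% in shNC; basal keratins take 37.2 to 41.7% and 43.0 to 45.3%.

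Proteins that work with keratins were followed on lists of fixed members. Of 17 tested linkers and desmosome proteins, 0 rose and 1 fell, with a median log2 fold change of -0.14. By edgeR at an unadjusted p under 0.05, 0 were higher and 4 lower, and DESeq2 called 0 higher and 2 lower. Over all genes, edgeR called 2.97% higher and 2.47% lower, the unadjusted p 14.6% and 14.1%, and DESeq2 8.07% and 6.69%, with a median log2 fold change of 0.01. Counts of a few members on this and the following lists are to be read against those shares. Plectin (PLEC), which ties keratin filaments to hemidesmosomes and to other cytoskeletal fibres, was at 114, 96.2 and 135 TPM in shMTHFD2, against 207, 194 and 183 TPM in shNC. All shMTHFD2 libraries were below all shNC libraries, and PLEC fell by 0.81 on the log2 scale (SE 0.13, edgeR adjusted p = 0.0222). The most abundant members were PERP, a desmosome membrane protein, at means of 585 TPM in shMTHFD2 and 549 TPM in shNC (log2 0.03, adjusted p = 0.863), and plakoglobin (JUP) at 474 and 444 TPM (log2 0.04, adjusted p = 0.809).

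Of 10 tested keratin-binding and trafficking proteins, 0 rose and 1 fell, with a median of -0.28. Unadjusted, 1 was higher and 3 lower, beside 28.7% of all genes in either direction, and DESeq2 called 0 higher and 1 lower, beside 14.8%. DNAJB6, a co-chaperone that binds KRT18, was at 144, 142 and 154 TPM in shMTHFD2, against 184, 190 and 176 TPM in shNC, and fell by 0.38 on the log2 scale (SE 0.08, edgeR adjusted p = 0.0471). The adjusted p of DNAJB6 ranged from 0.00346 to 0.251 over the alternatives and was under 0.05 in 6 of 18 of them, those by DESeq2 and limma-voom among them. SFN, the 14-3-3 sigma protein of keratinocytes, averaged 1444 ± 438 TPM in shMTHFD2 and 1519 ± 53.8 TPM in shNC (SD, n = 3 each; log2 -0.13, edgeR adjusted p = 0.670), and the small heat shock protein HSPB1 1074 ± 120 TPM and 933 ± 37.1 TPM (log2 0.15, adjusted p = 0.417).

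Of 10 tested intermediate filament genes outside the keratins, 0 rose and 1 fell, with a median of -0.11. Unadjusted, 0 were higher and 2 lower, beside 28.7% of all genes, and DESeq2 and limma-voom each called 0 higher and 1 lower, beside 14.8% and 5.06% of all genes. LMNB2, lamin B2 of the nuclear lamina, was at 58.7, 46.8 and 74.1 TPM in shMTHFD2, against 120, 125 and 108 TPM in shNC, and fell by 1.03 on the log2 scale (SE 0.15, edgeR adjusted p = 0.0204). Vimentin (VIM), the filament of mesenchymal cells, was at means of 230.1 TPM in shMTHFD2 and 283 TPM in shNC (log2 -0.36, adjusted p = 0.207), and lamin A/C (LMNA) at 375 and 449.6 TPM (log2 -0.28, adjusted p = 0.146).

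Transcription and splicing regulators of keratin genes gave 0 calls in either direction among 21 tested by edgeR, with a median of 0.00. At an unadjusted p under 0.05, 4 were higher and 1 lower, beside 28.7% of all genes. DESeq2 called 1 higher and 0 lower, beside 14.8%, and limma-voom 0 in either direction, beside 5.06%. The most abundant, CEBPB, a factor of keratinocyte differentiation, averaged 286 TPM in shMTHFD2 and 243 TPM in shNC (log2 0.18, edgeR adjusted p = 0.246), and ESRP1, an epithelial splicing regulator, 144 and 126 TPM (log2 0.14, adjusted p = 0.357).

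Epithelial genes outside the keratins were present throughout. The 12 markers, all tested, summed to 4088 to 5493 TPM in shMTHFD2 and 4516 to 4652 TPM in shNC. CLDN4, a tight junction claudin, was at 128, 171 and 108 TPM in shMTHFD2, against 70.0, 72.2 and 72.1 TPM in shNC, and was the 1 of 12 that rose (log2 0.88, SE 0.18, edgeR adjusted p = 0.0405), while 0 fell. Unadjusted, 2 were higher and 1 lower, beside 28.7% of all genes, and DESeq2 called 2 higher and 0 lower, beside 8.07% and 6.69%. LAMB3, a laminin chain of the basement membrane, averaged 985 TPM in shMTHFD2 and 767 TPM in shNC (log2 0.30, adjusted p = 0.122). Like KRT81, PLEC, DNAJB6, LMNB2 and CLDN4 did not pass 0.05 in edgeR when any 1 shNC library or shMTHFD2 replicate 1 was left out, with adjusted p of 0.0931 to 0.251.

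Many markers of other cells were at or under 1 TPM but some were not, and the part of such cells in the keratin values was not tested. The 10 fibroblast markers summed to 59.5 to 69.9 TPM in shMTHFD2 and 44.0 to 47.6 TPM in shNC, without overlap. Most of this was FAP and COL1A1, and 6 were at or under 1 TPM in every library. Of 5 tested, edgeR called 0. Unadjusted, 2 were higher and 0 lower, beside 28.7% of all genes, and DESeq2 called 1 higher and 0 lower, beside 14.8%. The 7 endothelial markers, of which PECAM1 and ERG were the most abundant, summed to 0.69 to 1.04 TPM in shMTHFD2 and 0.79 to 0.95 TPM in shNC. The 10 leukocyte markers, 9 of them in the table, summed to 146 to 209.9 TPM in shMTHFD2 and 144 to 160.4 TPM in shNC. Of these, CD68, a lysosomal protein that many cell lines express, gave means of 165 and 128 TPM. CD14 was next at means of 13.9 TPM in shMTHFD2 and 18.97 TPM in shNC, and 6 were at or under 1 TPM throughout. The 8 muscle and nerve markers, 7 of them in the table, summed to 43.7 to 54.4 TPM in shMTHFD2 and 39.1 to 45.7 TPM in shNC. The most abundant were ACTA2, at means of 32.5 TPM in shMTHFD2 and 30.9 TPM in shNC, and MYH11, at 11.2 and 8.54 TPM. Among tested leukocyte, endothelial, and muscle and nerve markers, edgeR and DESeq2 called 0 in either direction. In RNA of whole cultures, fewer cells that express a keratin and less of its RNA per cell cannot be told apart.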

How the data were processed

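Messenger RNA was measured in 6 libraries, grouped by the sample labels. Per the file headers, the deposited table gives FPKM, TPM, estimated read counts and normalized read counts per gene and library. The authors' FPKM, which scale fragments by gene length and depth, were used only to recompute sums, and the authors' TPM served for levels. The estimated counts deposited by the authors, 53.0 to 56.0% of them whole within a tolerance of 0.001, were rounded and tested. The deposited normalized counts, a signal made by the authors with 1 scaling factor per library, were left aside. For the aligner, counting tool, annotation, strand and read length, the sources used here give no statement. The mouse build mm10 stands in the submitters' processing notes, while the organism is human, so no coordinates are given; names, chromosomes and gene order came from a RefSeq table, which matched 46 of 46 keratins, and coding sequences from GENCODE 29 with Biopython 1.88.

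Groups were compared with edgeR 4.0.16 (filterByExpr, TMM, robust quasi-likelihood, no covariate) in R 4.3.3, with Benjamini-Hochberg adjustment over 13710 genes at 0.05. SEs are log2 fold changes, without sign, divided by the square root of F. The biological coefficient of variation was 16.7%. Tested on simulated data of 13583 genes, the test recovered 24.2% of 1.5-fold, 74.2% of 2-fold and 93.8% of 4-fold changes. It made 7 false calls among 132. The simulated libraries were independent, with the same dispersion in both groups. In the data 19 of 20 tested keratins varied more in shMTHFD2, so these rates may not hold here. Partner ratios used the exact permutation test in SciPy 1.17.1.

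All tested keratins are named, with values in every library at a mean of 10 TPM or more; of other lists, the called members (up to 4) and the 2 most abundant are named. Values of KRT13, KRT4, KRT83 and KRT23 were added outside this rule after they were seen. Keratins and lists were chosen with earlier results of these data known. Alternatives were each library left out, the replicate number as a block, other scalings and filters, DESeq2 1.42.0, limma 3.58.1, and CPM or FPKM for TPM. In limma these were voom, and trend on log2(TPM + 1) and log2(TPM + 0.1) for genes with at least 1 TPM in 3 libraries. In a further alternative, related copies were summed, KRT6A with KRT6B and KRT6C, and KRT14 with KRT16 and KRT17. The latter 3 were 80.9 to 88.7% identical in pairs. A sum of KRT81 with KRT86 was added after seeing the data.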

Additional observations from a re-analysis of the deposited data

How the results depend on the processing

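The count of keratins called higher, 1, was 0 with the replicate block and with KRT81 and KRT86 summed, 3 by DESeq2, and 0 to 4 with 1 library left out; the count called lower, 0, was 0 to 1 with 1 library left out. The cause was not tested. Without shMTHFD2 replicate 2, KRT15, KRT81 and KRT6B were called higher and KRT10 lower, beside 7.14% and 7.09% of all genes; without replicate 3, KRT15, KRT81, KRT23 and KRT16 higher and KRT86 lower, beside 13.6% and 12.6%. Over all genes, 407 were called higher and 338 lower; without a single library the counts ran from 1 and 0 (without shNC replicate 1 or 2) to 1895 and 1756 (without shMTHFD2 replicate 3), and were 11 and 5 with the block, 1106 and 917 by DESeq2, 449 and 230 on total counts, 455 and 210 under upper quartile scaling, 400 and 192 on log2(TPM + 1) and 408 and 194 on log2(TPM + 0.1). Same-numbered libraries deviated from their group means with correlations of 0.00074, -0.24 and -0.19 across genes. Deviations of 3 libraries from their own mean depend on each other, so these values cannot decide whether the numbers pair the samples. Under the replicate block KRT81 had an edgeR adjusted p of 0.143. Under the other scalings, filters and tools the adjusted p of KRT81 was 0.000794 to 0.0496. Among the keratin fold changes recomputed, 303 kept direction and side of the threshold, 9 newly passed it, 5 (all KRT81) no longer did, and 27 changed sign, none of them called. The sign changes were KRT17 at -0.068 with the block, -0.00026 without a filter, -0.077 by limma-voom and -0.025 on both TPM scales; KRT6A at 0.014 under upper quartile scaling and 0.0021 at 5 CPM; KRT80 at -0.0017 with the block and -0.0027 by limma-voom; KRT222 at -0.018 and -0.062; and KRT34 at 0.022 on log2(TPM + 0.1). With 1 library left out, KRT14 ran from -0.26 to 0.039, KRT34 from -1.05 to 0.90, KRT6A from -0.13 to 0.054, KRT7 from -0.33 to 0.017, KRT80 from -0.19 to 0.27, KRT222 from -0.32 to 0.41 and KRT17 from -0.19 to 0.31. The summed keratin level stayed between -0.05 and 0.12 (log2). For each partner ratio the log2 difference moved by less than the larger of its group SDs in all 7 alternatives. No p was recomputed for the ratios. Depth was not varied. The 26 keratins that did not pass the filter had at most 11.54 estimated counts in any library, and their changes were not tested.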
